A study of Mus musculus with 30 samples.

Results

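The phosphate hormone axis was followed here through 7 genes chosen by name: *Phex*, *Fgf23*, *Galnt3*, *Fam20c*, *Fgfr1*, *Pth1r* and *Pthlh*. They are 7 of the 25520 gene symbols listed for untreated cells and of the 25410 listed for the hormone experiment, and all 7 are listed in both. RNA sequencing had been done on IDG-SW3, a conditionally immortalised line of mouse bone cells that matures in culture from the late osteoblast to the osteocyte stage. All cultures of this single line were grown up at 33 °C with 50 U/mL interferon-gamma. They then differentiated at 37 °C with no interferon-gamma, in medium with 50 µg/mL ascorbic acid and 4 mM beta-glycerophosphate. In the second experiment, cells at day 3 or day 35 of differentiation were given 1,25(OH)2D3, the active vitamin D hormone, at 100 nM or its ethanol vehicle for 24 h, with 3 libraries in each of the 4 groups. In the first experiment, untreated cells were taken on 6 days of differentiation, from day 3 through days 7, 14, 21 and 28 to day 35, with 3 libraries a day. The design text calls the replicates biological triplicates.

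FGF23 is a hormone that osteocytes release and that makes the kidney excrete phosphate. Before it leaves the cell it is either glycosylated by the enzyme encoded by *Galnt3*, which protects it from cleavage by furin-type proteases, or phosphorylated by the kinase encoded by *Fam20c*, which leaves it open to cleavage. *Phex* encodes a membrane endopeptidase whose loss raises FGF23 and causes X-linked hypophosphataemia. *Fgfr1* encodes the receptor that FGF23 binds together with the coreceptor Klotho in the kidney, and the same receptor acts in osteocytes upstream of *Fgf23*. *Pth1r* encodes the shared receptor of parathyroid hormone and of parathyroid hormone-related protein, and *Pthlh* encodes parathyroid hormone-related protein.

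The promoter windows of *Phex*, *Galnt3* and *Fam20c*, 3 members with a called response to the hormone and 1 window each, are shown first, because they differ widely in base composition. They run from 250 bases before to 50 bases after the transcription start and come from RefSeq on GRCm38.p6, with each CG dinucleotide in capitals. The *Phex* window lies at chrX:157415237-157415536 on the minus strand, the *Galnt3* window at chr2:66124744-66125043 on the minus strand and the *Fam20c* window at chr5:138754831-138755130 on the plus strand.
Phex: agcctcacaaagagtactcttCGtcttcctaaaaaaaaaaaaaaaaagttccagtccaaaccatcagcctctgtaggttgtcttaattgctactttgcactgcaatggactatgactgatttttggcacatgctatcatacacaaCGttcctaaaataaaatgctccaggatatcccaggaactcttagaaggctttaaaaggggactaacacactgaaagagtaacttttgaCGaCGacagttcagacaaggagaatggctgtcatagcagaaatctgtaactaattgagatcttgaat
Galnt3: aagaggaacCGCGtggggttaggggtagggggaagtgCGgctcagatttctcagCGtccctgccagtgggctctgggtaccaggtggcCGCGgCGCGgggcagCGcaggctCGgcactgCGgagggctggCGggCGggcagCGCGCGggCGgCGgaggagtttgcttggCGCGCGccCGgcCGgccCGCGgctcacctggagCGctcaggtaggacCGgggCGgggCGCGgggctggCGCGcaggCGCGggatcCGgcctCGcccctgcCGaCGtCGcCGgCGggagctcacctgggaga
Fam20c: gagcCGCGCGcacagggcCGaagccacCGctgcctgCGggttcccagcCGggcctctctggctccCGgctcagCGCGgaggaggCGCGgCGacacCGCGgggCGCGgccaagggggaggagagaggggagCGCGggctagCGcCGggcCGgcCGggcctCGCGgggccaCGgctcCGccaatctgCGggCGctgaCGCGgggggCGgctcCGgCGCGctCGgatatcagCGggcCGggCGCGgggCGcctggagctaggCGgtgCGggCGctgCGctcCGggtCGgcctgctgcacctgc
The *Phex* window had 38.7% G and C and 4 CG dinucleotides. Only 7.91% of the 32851 RefSeq promoter windows of the same length had a lower share of G and C. The *Galnt3* window had 76.7% G and C with 41 CG dinucleotides, above 97.3% of windows in its share of G and C. The *Fam20c* window had 80.7% with 47 CG dinucleotides, above 99.2% of windows, where the median window had 52.7% and 7. On both strands, the letters AGTTCA, 1 of 3 hexamers searched as written in vitamin D response elements, stood 1 time in the *Phex* window and are in 14.0% of all windows. The other 2 hexamers, AGGTCA and GGTTCA, stood in none of these 3 windows and are in 16.3% and 10.4% of all windows. The letters TGTGGT, the core that RUNX factors bind, are in 16.8% of all windows and in none of these 3. The letters TGACG, part of the cAMP response element, stood 1 time each in the *Phex* and *Fam20c* windows and are in 20.8% of all windows, and the whole element TGACGTCA (1.79% of windows) and TATAAA (13.6%) stood in none of the 3. A match is a description of the letters only.

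Levels are given in RPKM, reads scaled to gene length and to library size, for untreated cells. For the hormone experiment they are given as deposited counts and as CPM, counts scaled to library size after TMM. A gene was called changed at a Benjamini-Hochberg adjusted p below 0.05, over all genes tested, by limma on log2(RPKM + 0.5) in untreated cells or by edgeR's quasi-likelihood test in the hormone experiment. The 12 hormone libraries held between 22062866 and 54325515 counts each. TMM factors were 1.175 to 1.288 in the day 3 hormone libraries and 0.909 to 0.959 in the day 3 vehicle libraries. Every day 3 change, hormone over vehicle, is therefore lower than by library size alone. Changes by library size alone were not tested. In the 18 untreated libraries, ribosomal RNA took 49.0% to 58.1% of the summed RPKM and 1 unannotated row a further 18.3% to 30.4%. *Cyp24a1*, the vitamin D catabolic enzyme gene and a direct target of the vitamin D receptor, served as the check of the treatment. It reached 6.99 ± 2.55 CPM in hormone cells against 0.116 ± 0.0189 CPM in vehicle cells at day 3, and 78.4 ± 20.4 CPM against 0.0474 ± 0.0222 CPM at day 35 (SD, n = 3 each). All 7 osteoblast markers were listed in every group. Their summed level was 511 to 897 RPKM in untreated day 35 libraries against 171 to 211 RPKM at day 3, and 41100 to 59300 CPM in vehicle day 35 libraries against 6500 to 9120 CPM at day 3. The 6 osteocyte markers summed to 26.2 to 51.2 RPKM at untreated day 35 against 15.2 to 23.6 RPKM at day 3. Among them *Sost* was at 0 on days 3 to 21, and *Pdpn* was at 0 on day 35 only. In vehicle cells they summed to 330 to 380 CPM at day 35 against 104 to 172 CPM at day 3. In hormone cells they summed to 354 to 429 CPM at day 35 against 61.5 to 65.8 CPM at day 3. Of other lineages, the 5 endothelial markers summed to 6.49 to 8.21 CPM in day 3 hormone libraries against 2.25 to 5.48 CPM in day 3 vehicle libraries, and to 2.01 to 5.52 CPM against 1.37 to 2.99 CPM at day 35. *Pecam1* was at 0 in all 12 of these libraries, and in untreated cells the 5 summed to at most 0.165 RPKM. The 5 muscle markers summed to 2.82 to 3.16 CPM in day 3 hormone libraries against 5.42 to 11.4 CPM in day 3 vehicle libraries, to 0.383 to 1.82 CPM against 0.736 to 1.62 CPM at day 35, and to at most 1.01 RPKM in untreated cells. The 6 adipocyte markers summed to at most 4.75 RPKM in untreated cells. Their sum ran from 2.66 to 162 CPM in the day 3 hormone libraries, against 1.83 to 3.92 CPM in day 3 vehicle libraries. The 6 chondrocyte markers summed to 29.0 to 66.1 CPM in day 3 hormone and 55.8 to 148 CPM in day 3 vehicle libraries, with *Col9a1* at 0 in untreated cells. The 6 markers of macrophages and osteoclasts, which include the bone protease gene *Ctsk*, summed to 565 to 721 CPM in vehicle day 35 and 148 to 193 CPM in vehicle day 3 libraries. The part of these marker levels in the members' results was not tested.

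The members fell into 3 classes of measurement. *Galnt3*, *Pth1r* and *Fam20c* had values in both experiments, *Pth1r* over several rows. *Phex* could be read only in the hormone experiment, and *Fgfr1* only in untreated cells. *Fgf23* and *Pthlh* were too low to judge in either. Of the 7 members, 4 passed the filter of 1 RPKM in 3 libraries for the untreated tests and 6 passed the count filter of the hormone tests. *Galnt3* reached 1 RPKM only in libraries of days 28 and 35, and *Fam20c* only in libraries of days 21, 28 and 35.

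*Galnt3*, the glycosyltransferase that stabilises intact FGF23, was at or near 0 through day 14 of untreated differentiation and was listed above 0 in every library from day 21 on. Its 3 libraries held 0.023, 0 and 0 RPKM on day 3, 0.041, 0.024 and 0 RPKM on day 7, and 0, 0 and 0.029 RPKM on day 14. They held 0.047, 0.15 and 0.081 RPKM on day 21, 0.979, 1.199 and 1.192 RPKM on day 28, and 2.196, 2.128 and 0.797 RPKM on day 35. Day 21 lay above day 14 and day 28 above day 21 without overlap, while the ranges of days 28 and 35 overlapped. On the log2(RPKM + 0.5) scale, which understates the change of a gene this low at the start, day 28 was 1.67 ± 0.22 above day 3 (SE, limma adjusted p = 3.9e-06). Day 35 was 2.05 ± 0.22 above day 3 (limma adjusted p = 1.8e-07), and day 21 did not pass (0.22 ± 0.22, limma adjusted p = 0.459). The size depends on the added constant and the scaling, running from 1.38 with 1 RPKM added to 4.32 after rescaling without ribosomal rows at day 35. In bulk RNA, fewer cells that express a gene and less RNA per cell cannot be told apart, here and in the comparisons that follow.

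*Pth1r*, the receptor through which parathyroid hormone acts on osteoblasts and osteocytes, was called higher than on day 3 from day 21 on. Its 3 rows hold equal values in all 18 libraries. Whether each row repeats the whole value or holds a share of it was not tested. The values of 1 row are given, so the level of the gene may be higher than listed. That row held 0.978, 0.797 and 0.953 RPKM on day 3, 1.329, 1.4 and 1.223 RPKM on day 7, and 0.807, 1.31 and 1.181 RPKM on day 14. It then held 2.676, 3.967 and 2.871 RPKM on day 21, 7.705, 8.157 and 10.019 RPKM on day 28, and 12.568, 10.348 and 6.756 RPKM on day 35. From low to high the days ran 3, 14, 7, 21, 28 and 35. Day 7 lay above day 3 without overlap. Day 7 overlapped day 14 and day 35 overlapped day 28, while day 21 lay above day 14 and below day 28 without overlap. Day 21 was 1.37 ± 0.23 above day 3 on the log2 scale (limma adjusted p = 9.5e-05), day 28 2.69 ± 0.23 above it (2.9e-08) and day 35 2.84 ± 0.23 above it (6.4e-09). Days 7 (0.37 ± 0.23, limma adjusted p = 0.243) and 14 (0.17 ± 0.23, adjusted p = 0.621) did not pass.

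**Figure D1:**
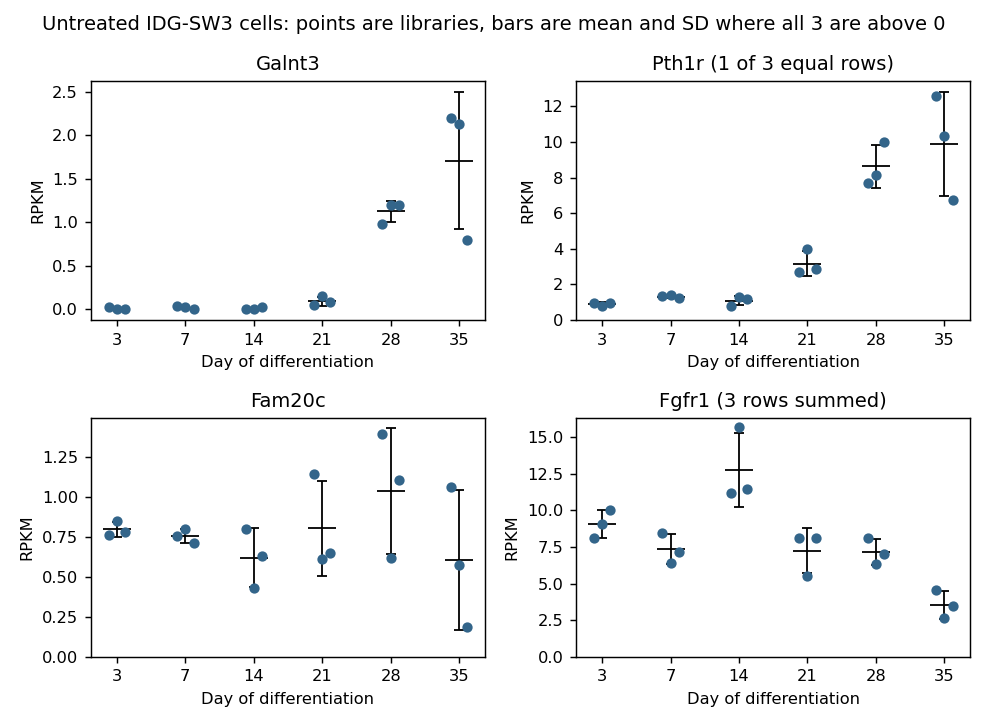
RPKM of 4 members (vertical axes, each with its own range) in untreated cells on the 6 days (horizontal axes). Each point is 1 library, and bars give mean and SD where all 3 libraries are above 0. *Galnt3* reaches 0.979 RPKM or more in all 3 day 28 libraries. *Pth1r* is above its day 3 range on day 7 and from day 21 on, and *Fam20c* overlaps from each day to the next.

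*Fam20c*, the secretory pathway kinase that phosphorylates FGF23 and many matrix phosphoproteins, was low on every untreated day and was called on none of them as listed. It held 0.761, 0.854 and 0.781 RPKM on day 3, 0.756, 0.8 and 0.712 RPKM on day 7, and 0.804, 0.432 and 0.629 RPKM on day 14. It held 1.149, 0.616 and 0.651 RPKM on day 21, 1.399, 0.619 and 1.107 RPKM on day 28, and 1.064, 0.574 and 0.185 RPKM on day 35. Each day overlapped the day before, and the SD was 0.44 RPKM on day 35 and 0.049 RPKM on day 3. No difference among the 6 days was called as listed (limma F test, adjusted p = 0.472), but it was called when each library was centred on its median gene (adjusted p = 0.0143) and after quantile normalization (adjusted p = 0.0412). The estimate at day 35, −0.31 ± 0.26 (limma adjusted p = 0.322), turned to 0.51 when each library was centred on its median gene.

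*Fgfr1* needs its 3 rows to be read together. In 7 untreated libraries, all 3 of day 3 among them, its whole value stood in 1 row with the other 2 at 0. In the other 11 libraries, all those of days 21 and 35 among them, it was shared over the 3 rows, with at most 35.4% in any 1 row. Summed over rows, *Fgfr1* held 8.1, 9.1 and 10.0 RPKM on day 3, 8.46, 6.44 and 7.19 RPKM on day 7, and 11.2, 15.7 and 11.4 RPKM on day 14. It held 8.14, 5.51 and 8.12 RPKM on day 21, 8.12, 6.31 and 7.04 RPKM on day 28, and 4.57, 2.66 and 3.44 RPKM on day 35. Day 14 was the highest and day 35 the lowest, neither overlapping its neighbours in time. Summed, *Fgfr1* at day 35 was 1.26 ± 0.23 below day 3 on the log2 scale (a change of −1.26, limma adjusted p = 9.8e-05). With the rows summed and each library centred on its median gene, the same change was −0.44 (limma adjusted p = 0.0533). The other 4 days did not pass when summed (limma adjusted p = 0.143 to 0.372), and day 14 passed upward when summed and centred (0.48, adjusted p = 0.0470). Taken from its highest row alone, *Fgfr1* was called lower on day 7 (−1.26 ± 0.42, limma adjusted p = 0.0333), day 21 (−1.76 ± 0.42, adjusted p = 0.00245), day 28 (−1.28 ± 0.42, adjusted p = 0.0183) and day 35 (−2.54 ± 0.42, adjusted p = 3.7e-05). On the first 3 of those days that call was absent when the rows were summed. The day 7 call from the highest row was also lost without any 1 of the day 3 replicates (limma adjusted p = 0.0645, 0.0797 and 0.0904) or without day 7 replicate 1 (0.1) or 3 (0.142). The day 28 call was lost without day 28 replicate 1 (limma adjusted p = 0.0635) or 3 (0.092) or day 3 replicate 3 (0.0556).

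**Figure D2:**
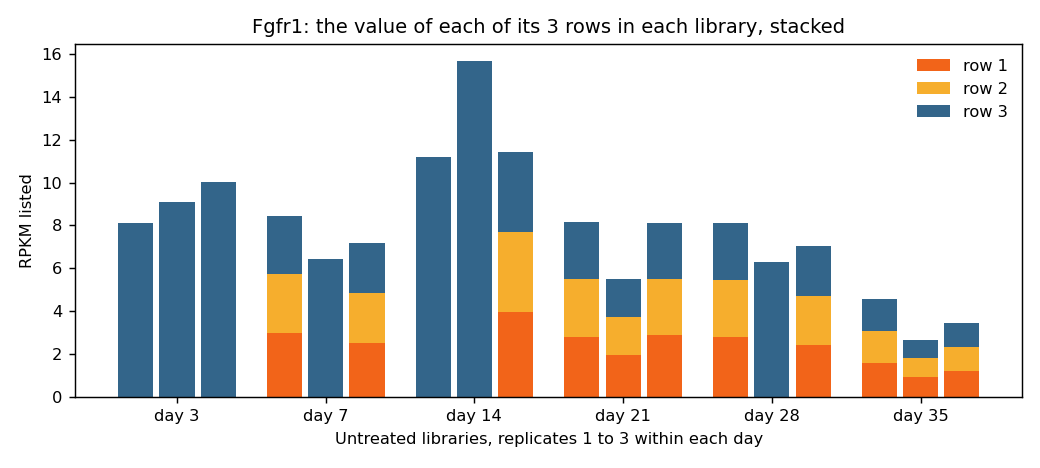
RPKM listed for each of the 3 rows of *Fgfr1*, stacked, in each untreated library (bars, grouped by day, replicates 1 to 3 from left to right). In 7 libraries the bar is a single row, and in the other 11 it is split over 3 rows of similar height.

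Taken as 1 value per symbol from the highest row, 2 of the 4 tested members (*Galnt3* and *Pth1r*) were called higher at untreated day 35 than at day 3, and *Fgfr1* was called lower. Of all 9933 genes tested, 57.1% were called in that comparison, 5.63% higher and 51.5% lower, and the median gene moved by −0.69. When each library was centred on its median gene, 57.8% of the calls were higher, against 9.85% as listed. The same centring took that share to 56.6% from 24.9% at day 28 and to 55.3% from 34.9% at day 21. At day 28, 2 members were called higher and 1 lower, with 41.5% of genes called and a median move of −0.28. At day 21, *Pth1r* was called higher and *Fgfr1* lower (37% of genes called). At day 7 *Fgfr1* was called lower (25.7% called, 9.84% lower), and at day 14 none of the 4 was called (29.7%). The *Fgfr1* calls of days 7, 21 and 28 are of its highest row and were absent with its rows summed. *Galnt3* passed the filter of 1 RPKM only through days 28 and 35, the days on which it was called higher. Its place in these counts is therefore not independent of the filter. Over all 6 days, 3 of the 4 members (all but *Fam20c*) were called different (limma F test), where 72.5% of genes were called. Replicate 1 of every day carried a single run number in its deposited name, read here as a sequencing run. Within that run (n = 1 a day), day 35 differed from day 3 on the log2 scale by 2.37 for *Galnt3*, 3.14 for *Pth1r*, 0.31 for *Fam20c* and −0.76 for *Fgfr1* summed. In a second run, day 28 (n = 2) was above day 14 (n = 2) by 1.72 for *Galnt3* and 2.45 for *Pth1r*. Day 35 replicates 2 and 3 were alone in another run.

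*Phex*, *Fgf23* and *Pthlh* could not be judged in untreated cells. *Phex* was listed at 0.211, 0.093 and 0.02 RPKM on day 35 and at 0.059, 0.094 and 0 RPKM on day 3, and no untreated library exceeded 0.211 RPKM. *Fgf23* and *Pthlh* were listed at 0 in all 18 libraries. *Dmp1*, the osteocyte matrix phosphoprotein whose loss raises FGF23, averaged only 0.341 ± 0.203 RPKM on day 35 and 0.0877 ± 0.0306 RPKM on day 3 (SD, n = 3 each). In the vehicle cells of the other experiment *Phex* had 42.2 ± 6.67 CPM per kilobase of exon at day 35 and 5.89 ± 0.233 at day 3, and *Dmp1* had 65.8 ± 21.1 and 2.04 ± 0.541. The experiments used different library kits and were scaled separately, so those levels were not tested against each other.

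*Phex*, the endopeptidase gene, was the highest of the 6 members with counts, per kilobase, in all 4 groups of the hormone experiment. It was lower after hormone at both days and higher at day 35 under either treatment. At day 3 it had 661, 836 and 766 counts in hormone libraries, against 1505, 1587 and 1686 in vehicle libraries. That is 22.7 ± 1.43 CPM against 37.1 ± 1.47 CPM (SD, n = 3 each), with no overlap, a log2 change of −0.71 ± 0.15 (SE, edgeR adjusted p = 0.00589). At day 35 it had 6575, 5758 and 7726 counts in hormone libraries, against 7652, 8527 and 6505 in vehicle libraries. Scaled, these were 157 ± 21.8 CPM against 266 ± 42.0 CPM, again with no overlap, a change of −0.76 ± 0.15 (edgeR adjusted p = 0.00619). That day 35 call was lost without hormone replicate 1 (edgeR adjusted p = 0.0695) or without vehicle replicate 2 (adjusted p = 0.0883). The responses at day 35 and day 3 differed by −0.05 ± 0.21 (edgeR adjusted p = 0.912), an interval of 1 SE that spans 0. Both the day 3 size and this difference rest on the TMM factors, which at day 3 were higher in hormone than in vehicle libraries. By library size alone the day 3 fall of *Phex* would be smaller, and that change was not tested. *Phex* at day 35 was above day 3 by 2.79 ± 0.16 in hormone cells (6.93-fold, edgeR adjusted p = 1.1e-08) and by 2.84 ± 0.16 in vehicle cells (7.17-fold, adjusted p = 5.8e-09).

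*Galnt3* gave the largest estimate of a difference in response between days among the members. It lay within 1 SE of that of *Pth1r* (−4.25 ± 0.62), so their order is not settled. At day 3 *Galnt3* had 37, 59 and 44 counts in hormone libraries, against 4, 1 and 8 in vehicle libraries, or 1.39 ± 0.244 CPM against 0.101 ± 0.0805 CPM (SD, n = 3 each). Every hormone library was above every vehicle library, a log2 change of 3.75 ± 0.36 (SE, edgeR adjusted p = 6.5e-06). At day 35 it had 3433, 2844 and 4346 counts in hormone libraries, against 4256, 3629 and 3326 in vehicle libraries. That is 82.5 ± 11.8 CPM against 130 ± 5.76 CPM, with the hormone libraries lower and no overlap, and the change of −0.66 ± 0.20 did not pass (edgeR adjusted p = 0.0866). It passed with DESeq2 (−0.61, adjusted p = 0.00927) and with edgeR on the 6 day 35 libraries alone (−0.59, adjusted p = 0.0366). The responses at day 35 and day 3 differed by −4.41 ± 0.41 (edgeR adjusted p = 8.9e-06). *Galnt3* was higher at day 35 than at day 3 by 5.88 ± 0.26 in hormone cells (edgeR adjusted p = 2.5e-09) and by 10.29 ± 0.34 in vehicle cells (adjusted p = 4.6e-11). Without vehicle day 3 replicate 3, which held 8 of the 13 counts, the vehicle difference was 11.05, the day 3 response 4.40 and the difference of responses −5.02. With background subtracted, day 35 was above day 3 by 6.73 in hormone cells and 11.16 in vehicle cells.

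The day 3 level of *Galnt3* stood close to the background of the libraries. Background was measured on the 1083 olfactory receptor genes with an exon length, a family known from the nasal epithelium. They held 4.31 to 5.98 counts per kilobase of exon in the day 3 hormone libraries against 0.532 to 0.715 in the day 3 vehicle libraries, and 0.511 to 3.92 in day 35 hormone libraries against 0.282 to 1.24 in day 35 vehicle libraries. At those rates *Galnt3* would hold 65.3 counts over the 3 day 3 hormone libraries, where 140 were seen, and 7.81 over the 3 vehicle libraries, where 13 were seen. With that background subtracted from every gene, the day 3 change of *Galnt3* was 3.84 ± 0.58 (edgeR adjusted p = 4.6e-04). At day 35 the expected background was 22.6 of 10623 counts in hormone libraries and 8.92 of 11211 counts in vehicle libraries.

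**Figure D3:**
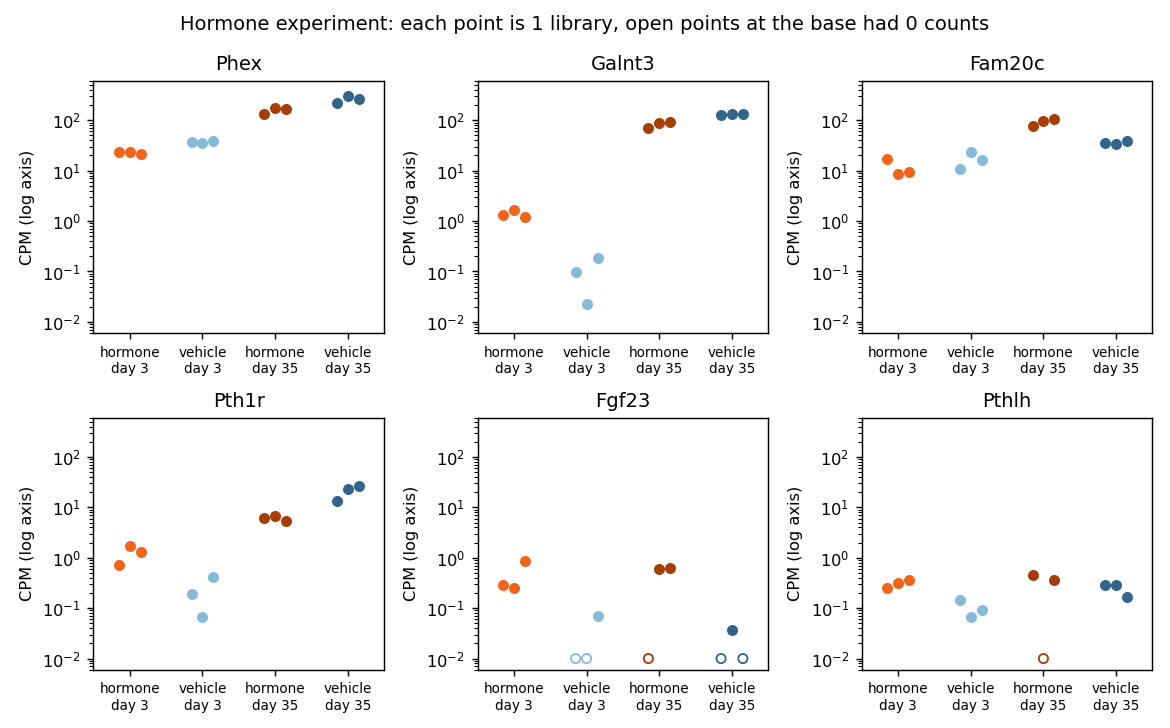
CPM of 6 members (vertical log axes) in the 12 libraries of the hormone experiment, hormone left of vehicle at each day. Each filled point is 1 library, and open points at the base mark 0 counts. *Phex* is lower in hormone libraries at both days, *Galnt3* and *Pth1r* are higher at day 3 and lower at day 35, and *Fam20c* is higher in hormone libraries at day 35.

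*Fam20c*, the FGF23 kinase gene, was the only member called higher after hormone at day 35. There it had 3819, 3239 and 5064 counts in hormone libraries, against 1184, 928 and 965 in vehicle libraries. Scaled, these were 94.2 ± 15.5 CPM against 35.8 ± 3.16 CPM (SD, n = 3 each) with no overlap, a log2 change of 1.39 ± 0.28 (2.63-fold, edgeR adjusted p = 0.00681). At day 3 it had 481, 309 and 346 counts in hormone libraries, against 442, 1055 and 709 in vehicle libraries, or 11.7 ± 4.53 CPM against 16.9 ± 6.53 CPM. Those ranges overlapped and the change of −0.53 ± 0.28 did not pass (edgeR adjusted p = 0.168). It passed without hormone replicate 1 (−0.90, edgeR adjusted p = 0.0418) or without vehicle replicate 1 (−0.86, adjusted p = 0.0313). The responses at day 35 and day 3 differed by 1.93 ± 0.39 (edgeR adjusted p = 0.00732). Day 35 was above day 3 by 3.01 ± 0.30 in hormone cells (edgeR adjusted p = 2.2e-06) and by 1.08 ± 0.28 in vehicle cells (adjusted p = 0.00773).

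*Pth1r*, the parathyroid hormone receptor gene, rose after hormone at day 3 and fell at day 35. At day 3 it had 20, 60 and 48 counts in hormone libraries, against 8, 3 and 18 in vehicle libraries, or 1.24 ± 0.502 CPM against 0.225 ± 0.175 CPM (SD, n = 3 each). In CPM the groups did not overlap, and the log2 change was 2.46 ± 0.48 (edgeR adjusted p = 0.00347). The expected background over 3 libraries was 43.7 of 128 counts in hormone cells and 5.22 of 29 counts in vehicle cells. Hormone replicate 1 held 20 counts with 13.6 expected, and vehicle replicate 3 held 18 with 1.57 expected. Net of background, that hormone library was not above that vehicle library. The expected background assumes that all reads over the exons of *Pth1r* were counted, which was not tested for this symbol with several rows. With background subtracted, the change was 2.30 ± 0.68 (edgeR adjusted p = 0.0335), and with only the day 3 libraries in the fit it did not pass (adjusted p = 0.0635). At day 35 *Pth1r* had 311, 219 and 250 counts in hormone libraries, against 462, 642 and 653 in vehicle libraries. That is 6.07 ± 0.695 CPM against 21.1 ± 6.82 CPM with no overlap, a change of −1.80 ± 0.39 (edgeR adjusted p = 0.0116). The day 35 call was lost with background subtracted (−1.76, edgeR adjusted p = 0.0619). It was also lost without hormone replicate 1 (adjusted p = 0.058) or 3 (0.0778) or vehicle replicate 2 (0.0801) or 3 (0.103). The responses at day 35 and day 3 differed by −4.25 ± 0.62 (edgeR adjusted p = 5.1e-04). Day 35 was above day 3 by 2.28 ± 0.41 in hormone cells (edgeR adjusted p = 6.6e-04) and by 6.53 ± 0.51 in vehicle cells (adjusted p = 1.4e-07). Without vehicle day 3 replicate 3, which held 18 of the 29 counts, the vehicle difference was 7.32, the day 3 response 3.15 and the difference of responses −4.91.

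The counts of *Pth1r* stood in 2 of its 3 rows. At day 35 the first row held 616 counts over the hormone libraries and 1460 over the vehicle libraries, and the second held 164 and 296. At day 3 the first row held 84 over the hormone libraries and 15 over the vehicle libraries, and the second held 44 and 14. Both rows were higher after hormone at day 3 and lower at day 35 in these sums. The third row held 1 count in all 12 libraries. As a symbol with several rows *Pth1r* is of the kind often low in this experiment (44.1% of those at 5 RPKM or more in untreated day 3 cells were below 1 CPM in day 3 vehicle cells, against 3.18% with a single row), so its level and its place among the members are uncertain.

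**Figure D4:**
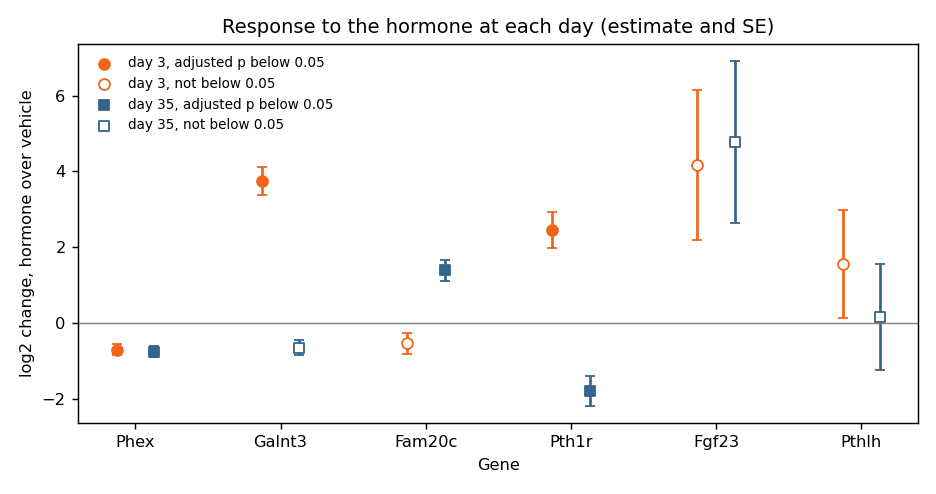
Log2 change, hormone over vehicle, of 6 members (horizontal axis) at day 3 (circles) and day 35 (squares) with SE from edgeR. Filled symbols have an adjusted p below 0.05. *Galnt3* and *Pth1r* lie above 0 at day 3 and below 0 at day 35, *Phex* lies below 0 at both, and the SE of *Fgf23* and *Pthlh* are wide.

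*Fgf23*, the phosphate hormone itself, was at the edge of detection. It had 8, 9 and 32 counts in day 3 hormone libraries against 0, 0 and 3 in day 3 vehicle libraries. At day 35 it had 0, 20 and 30 counts in hormone libraries against 0, 1 and 0 in vehicle libraries. The hormone libraries thus held 49 and 50 counts in sum against 3 and 1 in the vehicle libraries. The background expected over its exons was 27.0 counts in day 3 hormone libraries against 3.24 in day 3 vehicle libraries, and 9.36 in day 35 hormone libraries against 3.70 in day 35 vehicle libraries. Of the 50 day 35 hormone counts, 20 were in replicate 2, where 7.12 were expected from background, and 30 in replicate 3, where 1.31 were expected. *Fgf23* was called in none of the 5 comparisons (edgeR adjusted p = 0.134 to 0.945). With only the day 3 libraries in the fit, the day 3 difference passed (edgeR adjusted p = 0.0419). That fit took no account of background. Day 3 hormone replicates 1 and 2 held 8 and 9 counts, where 8.42 and 7.82 were expected from background. Replicate 3 held 32, where 10.8 were expected.

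*Pthlh*, the parathyroid hormone-related protein gene, had 7, 11 and 13 counts in day 3 hormone libraries against 6, 3 and 4 in day 3 vehicle libraries. At day 35 it had 23, 0 and 17 counts in hormone libraries against 10, 8 and 4 in vehicle libraries. The day 3 hormone sum of 31 stood beside an expected background of 24.2, and the day 3 vehicle sum of 13 beside 2.89. No comparison was called for *Pthlh* (edgeR adjusted p = 0.431 to 0.981), and levels this low do not show that it held steady.

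**Figure D5:**
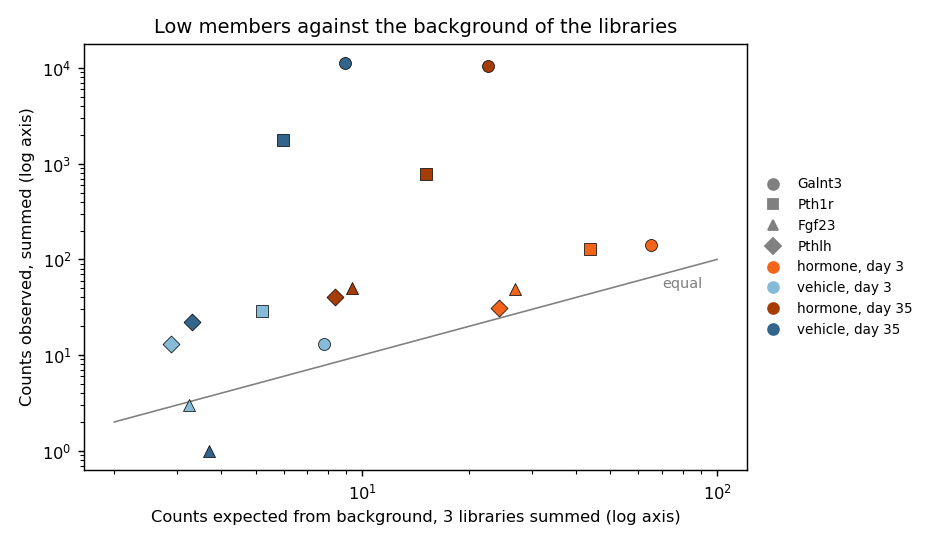
Counts observed (vertical log axis) against counts expected from olfactory receptor background (horizontal log axis), each summed over the 3 libraries of a group, for *Galnt3*, *Pth1r*, *Fgf23* and *Pthlh*. The line marks equality. *Fgf23* in vehicle libraries lies below the line, *Pthlh* in day 3 hormone libraries lies close to it at 31 against 24.2, and *Galnt3* and *Pth1r* at day 35 lie far above it.

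*Fgfr1* could not be judged in the hormone experiment, because each of its 3 rows held 0 counts in all 12 libraries. By counting error alone, a sum of 0 allows up to 0.0366 CPM in day 3 hormone and 0.0218 CPM in day 3 vehicle cells. The background expected over its exons was 147 counts in day 3 hormone and 17.6 in day 3 vehicle libraries. The zeros were thus below background as well, so that floor does not bound the level of *Fgfr1* RNA. The gene was listed at 8.1 to 10.0 RPKM in untreated day 3 cells. Symbols with several rows often had few or no counts in that experiment. Of 775 such symbols at 5 RPKM or more in untreated day 3 cells, 14.1% had 0 counts in all 12 libraries, against 0.718% of 2925 symbols with a single row. *Furin*, the protease that cleaves FGF23, likewise averaged 0.0366 ± 0.0634 CPM in day 3 hormone cells and 0.0894 ± 0.155 CPM in day 3 vehicle cells, where untreated day 3 cells had 4.74 ± 0.124 RPKM in its highest row. The part of the row structure in these zeros was not tested.

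Among the 6 tested members, hormone against vehicle at day 3 called 2 higher (*Galnt3* and *Pth1r*) and 1 lower (*Phex*), where 20.5% of all 20055 genes were called, 11.4% higher and 9.09% lower. Over all genes, 55.5% of the day 3 calls were higher, against 44.6% with background subtracted, 72.2% with only the day 3 libraries in the fit and 38.1% to 46.4% with 1 library left out. At day 35, 1 was called higher (*Fam20c*) and 2 lower (*Phex* and *Pth1r*), where 4.56% of genes were called, 2.41% higher and 2.14% lower. The responses at the 2 days were called different for 3 members, *Fam20c* upward and *Galnt3* and *Pth1r* downward, where 7.08% of genes were called, 4.14% higher and 2.94% lower. Day 35 was called above day 3 for 4 of the 6 members in hormone cells, with 27.6% of genes called (14.7% higher), and for the same 4 members in vehicle cells, with 29.9% called (15.5% higher). These 4 were *Phex*, *Galnt3*, *Fam20c* and *Pth1r*. The comparisons share libraries pairwise, so their values are not independent. Without day 35 hormone replicate 2, the library of its group with the highest background, the day 35 changes were −0.82 for *Phex*, −0.67 for *Galnt3*, 1.39 for *Fam20c* and −1.85 for *Pth1r*, and the 3 calls held (edgeR adjusted p = 0.0135, 0.0168 and 0.0353 for *Phex*, *Fam20c* and *Pth1r*).

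Per kilobase of exon, the order of the members differed between the groups. In day 35 hormone cells *Phex* had 25.0 ± 3.46, *Galnt3* 18.9 ± 2.71, *Fam20c* 14.3 ± 2.35 and *Pth1r* 2.08 ± 0.238 CPM per kilobase (SD, n = 3). In day 35 vehicle cells *Phex* had 42.2 ± 6.67, *Galnt3* 29.8 ± 1.32, *Pth1r* 7.22 ± 2.33 and *Fam20c* 5.44 ± 0.479 CPM per kilobase. The ranges of *Galnt3* and *Fam20c* overlapped in hormone cells (15.8 to 21.1 against 11.7 to 16.3), and those of *Pth1r* and *Fam20c* overlapped in vehicle cells (4.62 to 9.12 against 5.08 to 5.98). In day 3 hormone cells the order was *Phex* (3.6 ± 0.228), *Fam20c* (1.78 ± 0.688), *Pth1r* (0.424 ± 0.172), *Galnt3* (0.319 ± 0.0559), *Fgf23* (0.260 ± 0.194) and *Pthlh* (0.188 ± 0.0342), and the last 4 overlapped from each to the next. In day 3 vehicle cells *Phex* (5.89 ± 0.233) and *Fam20c* (2.57 ± 0.991) stood above *Pth1r*, *Pthlh*, *Galnt3* and *Fgf23*, which were at or below 0.141 CPM per kilobase in every library.

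Among 16 genes of FGF23 glycosylation, phosphorylation and cleavage, 14 were tested in the hormone experiment. None was called higher and 3 lower after hormone at day 3 (median change −0.41, against 0.26 over all genes tested, of which 11.4% were called higher and 9.09% lower), among them *C1galt1* (−0.56 ± 0.13, edgeR adjusted p = 0.0119), which extends O-glycans, and *Galnt2* (−0.59 ± 0.13, adjusted p = 0.0071), a relative of *Galnt3*. At day 35, 1 was called higher and 1 lower (2.41% and 2.14% of all genes). *C1galt1* rose by 1.21 ± 0.14 (edgeR adjusted p = 5.3e-05), with 126 ± 11.9 CPM in hormone and 54.3 ± 5.62 CPM in vehicle cells, and the proprotein convertase gene *Pcsk6* fell, with a change of −1.59 ± 0.37 (adjusted p = 0.0209). Day 35 against day 3 called 7 higher and 1 lower in hormone cells (14.7% and 12.9% of all genes) and 4 higher and 3 lower in vehicle cells (15.5% and 14.5%). In untreated cells 11 were tested, and at day 35 1 was higher than at day 3 (*Fam20a*, the partner of *Fam20c*, 0.96 ± 0.23, limma adjusted p = 0.0015) and 4 lower (5.63% and 51.5% of all genes). With libraries centred on the median gene those counts became 5 higher and 2 lower. *Furin* at untreated day 35 changed by −0.31 ± 0.29 (limma adjusted p = 0.365) as listed and by 0.51 when centred.

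Among 19 genes of FGF receptors, coreceptors and feedback, all were tested in the hormone experiment. At day 3, 1 was called higher and 5 lower after hormone (11.4% and 9.09% of all genes), and at day 35 3 were called higher and none lower (2.41% and 2.14%). With background subtracted, none of 16 tested was called higher and 5 lower at day 3. *Dusp6*, a phosphatase induced by FGF receptor signalling, had 110 ± 17.4 CPM in hormone and 332 ± 5.14 CPM in vehicle cells at day 3 (−1.59 ± 0.17, edgeR adjusted p = 1.6e-05). At day 35 it had 223 ± 21.1 CPM in hormone and 65.1 ± 13.4 CPM in vehicle cells (1.78 ± 0.17, adjusted p = 1.02e-05), and the responses differed by 3.37 ± 0.24 (adjusted p = 6.2e-07). *Spry2*, a feedback inhibitor of the same pathway, fell at day 3 (−2.51 ± 0.23, edgeR adjusted p = 3.7e-06), and *Etv5* (1.31 ± 0.23, adjusted p = 0.0029) and the ligand gene *Fgf1* (1.97 ± 0.39, adjusted p = 0.0061) rose at day 35. *Kl*, which encodes Klotho, was not called at either day (edgeR adjusted p = 0.268 and 0.911) and averaged at most 1.24 CPM. In untreated cells 12 were tested, and 1 was higher and 7 lower at day 35 than at day 3 (5 and 5 when centred), where 5.63% of all genes were called higher and 51.5% lower, with *Dusp6* at −3.38 ± 0.23 (limma adjusted p = 1.2e-09).

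Among 22 genes of parathyroid hormone receptor signalling and its cAMP targets, 17 were tested in the hormone experiment. After hormone none was called higher and 3 lower at day 3 (11.4% and 9.09% of all genes), and 1 higher and 1 lower at day 35 (2.41% and 2.14%). With background subtracted, 1 was called higher and 2 lower at day 3. *Nr4a1*, an immediate early target of cAMP, had 1.83 ± 0.417 CPM in hormone and 126 ± 53.5 CPM in vehicle cells at day 3 (−6.09 ± 0.58, edgeR adjusted p = 6.7e-06). *Rgs2*, which damps signals from Gq-coupled receptors, fell at day 3 (−1.55 ± 0.20, edgeR adjusted p = 1.1e-04) and rose at day 35 (1.29 ± 0.19, adjusted p = 6.7e-04). *Adcy6*, an adenylyl cyclase, fell at day 35 (−0.58 ± 0.14, edgeR adjusted p = 0.0232), and that call was lost without hormone replicate 2 (adjusted p = 0.112). In untreated cells 14 were tested, and none was higher and 9 lower at day 35 (4 and 5 when centred), where 5.63% of all genes were called higher and 51.5% lower. *Nr4a1* was already lower on day 7 than on day 3 (−3.56 ± 0.22, limma adjusted p = 3.2e-09), with 0.948 ± 0.201 RPKM on day 7 and 16.5 ± 0.923 RPKM on day 3.

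Among 15 phosphate carriers and mineral regulators, 14 were tested in the hormone experiment. After hormone 4 were called higher and 3 lower at day 3 (11.4% and 9.09% of all genes), and 4 higher and none lower at day 35 (2.41% and 2.14%). With background subtracted, 11 were tested at day 3, of which 2 were called higher and 3 lower, and the list's median change was −0.37, against 1.36 without subtraction. *Enpp1*, which makes the mineralization inhibitor pyrophosphate, rose at day 3 (2.31 ± 0.29, edgeR adjusted p = 8.8e-05) and at day 35 (2.65 ± 0.29, adjusted p = 4.9e-05). *Ank*, which exports pyrophosphate, had 201 ± 24.3 CPM in hormone and 63.9 ± 11.7 CPM in vehicle cells at day 35 (1.66 ± 0.26, edgeR adjusted p = 0.00103). *Slc20a1*, a phosphate importer, fell at day 3 (−1.95 ± 0.18, edgeR adjusted p = 5.2e-06). *Dmp1* fell at day 3 (−1.51 ± 0.27, edgeR adjusted p = 0.0016) and was not called at day 35 (0.48 ± 0.23, adjusted p = 0.364). *Vdr*, the receptor of the hormone, was called higher at day 35 (1.64 ± 0.35, edgeR adjusted p = 0.0124) and not at day 3 (0.91 ± 0.36, adjusted p = 0.0774). In untreated cells 6 were tested, and 2 were higher and 2 lower at day 35 than at day 3 (2 and 1 when centred, and 5.63% and 51.5% of all genes as listed), among them *Alpl*, the alkaline phosphatase of mineralizing cells (2.50 ± 0.27, limma adjusted p = 2.9e-07), and *Phospho1* (2.44 ± 0.34, adjusted p = 5.9e-06).

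The genes whose levels ran most like each member were found by Pearson r across the libraries of an experiment, as a description. Libraries of the same day share their day and treatment, so the points are not independent. Over the 18 untreated libraries *Galnt3* ran most like *Ptgis*, which encodes prostacyclin synthase (r = 0.986), *Panx3* (0.97) and *Ibsp*, the bone sialoprotein gene (0.97). *Pth1r* there ran most like *Ibsp* (0.991), *Rab27b* (0.989) and the osteocalcin gene *Bglap2* (0.987). *Fam20c* reached only 0.871 with *Lamb2*, and *Fgfr1* summed reached 0.856 with *Dtx3*. Over the 12 libraries of the hormone experiment the genes most like *Phex* included *Vit* (0.993) and 2410006H16Rik (0.991). *Galnt3* ran most like *Bmp3* (0.994), *Prex1* (0.99) and *Lipc* (0.989), *Fam20c* like *Ank* (0.976), *Klhl5* (0.973) and *Itpr3* (0.971), and *Pth1r* like *Gpr141* (0.986), *Tlr2* (0.986) and *Ankzf1* (0.983). No gene was among the 3 most like *Galnt3* or *Pth1r* in both experiments.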

How the data were processed

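The 7 members and the gene lists were chosen with earlier results of these data known. For untreated cells the authors deposited RPKM per row, a unit read from the values. For the hormone experiment the deposited values are whole-number counts. Per the submitters' processing notes, reads were aligned with TopHat to mm9, and the counting step is not given in the sources used here. Per the labels' protocols, RNA was depleted of ribosomal RNA and the experiments used different library kits. A symbol's rows were reduced to the row with the highest mean (RPKM) or summed (counts). Untreated cells were tested with limma 3.58.1 (trend) on log2(RPKM + 0.5), 18 libraries, genes at 1 RPKM or more in at least 3 libraries, as listed. For the 12 hormone-experiment libraries, edgeR 4.0.16 in R 4.3.3 gave quasi-likelihood tests after filterByExpr and TMM. The difference of responses was the interaction contrast. The SE of an edgeR change is its size over the square root of F. Tests were two-sided and adjusted over all genes tested. The scripts were tested on simulated data. DESeq2 1.42.0 was an alternative. Summing rows together with median centring, the counts of *Pth1r* by row and the gene lists under other scalings were alternatives chosen after seeing the data. In addition to the members, the 3 called genes with the smallest adjusted p of each list were eligible to be named, with *Furin*, *Kl*, *Dmp1*, *Vdr* and *Cyp24a1*, and the 3 genes most like each member at 5 RPKM or CPM or more, of which 1 is not reported here.

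Same-numbered untreated libraries of days 7, 14, 21 and 28 deviated together with those of day 3 (r = 0.181 to 0.584). By the run number in its deposited name, replicate 1 of every day shared a sequencing run. Libraries of different number were not compared, so these values do not show that the numbers pair the samples. For untreated day 35 the lowest r was 0.0578. For hormone against vehicle at day 35, r was 0.369, 0.526 and −0.00728 for replicates 1, 2 and 3. In the other comparisons of the hormone experiment r ran from −0.205 to 0.00358. Whether the numbers pair the day 35 hormone and vehicle libraries is not settled by these values, and the main tests used no pairing. Promoter windows and exon lengths (GENCODE M21) are of GRCm38 and were not joined to mm9 coordinates. Intervals and the floor of 3 counts cover counting error only.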

Additional observations from a re-analysis of the deposited data

Results flagged for a closer look

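Of the 6 tested members, 3 responded to the hormone differently at the 2 days by the interaction test, where 7.08% of all genes were called. The response at day 35 minus that at day 3 was −4.41 on the log2 scale for *Galnt3* (edgeR adjusted p = 8.9e-06), −4.25 for *Pth1r* (adjusted p = 5.1e-04) and 1.93 for *Fam20c* (adjusted p = 0.00732). In CPM, the 3 hormone libraries did not overlap the 3 vehicle libraries at either day for *Galnt3* and *Pth1r*. They lay above the vehicle libraries at day 3 and below them at day 35. The share of all genes without overlap between these groups was not counted. Net of background, day 3 hormone replicate 1 was not above vehicle replicate 3 for *Pth1r*. For this symbol with several rows, that background assumes that all reads over its exons were counted, which was not tested. The day 3 hormone libraries carried 4.31 to 5.98 background counts per kilobase, against 0.532 to 0.715 in day 3 vehicle libraries. With background subtracted the differences were −4.43 for *Galnt3*, −4.06 for *Pth1r* and 1.97 for *Fam20c* (edgeR adjusted p = 4.9e-04, 0.00802 and 0.00751).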

How the results depend on the processing

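Low counts limit what can be said of *Fgf23* and *Pthlh* in all groups and of *Galnt3* and *Pth1r* at day 3. The replicate block changed no call on a member. With it, 3147 genes were called at untreated day 7, 3441 at day 14, 4133 at day 21, 4591 at day 28, 6131 at day 35, 3338 and 785 for hormone against vehicle at days 3 and 35, and 1135 for the difference of responses. DESeq2 called 6412 genes at day 3 (4102 by edgeR), 1588 at day 35 (914) and 2736 for the difference (1420). Background subtraction gave 2254 at day 3, the groups compared alone 1402 at day 35, and the sequencing run as a term 3463 at untreated day 35 (5676 without). Leaving out 1 library gave 1378 to 1992 genes at untreated day 7 (1378, 1499 and 1614 without day 3 replicates 1, 2 and 3, 1658 without day 7 replicate 3, 2551 with all). It gave 1727 to 3833 for hormone at day 3 (2508, 2025 and 1727 without hormone replicates 1, 2 and 3, 2632 without vehicle replicate 2), 589 to 775 at day 35 (589 without vehicle replicate 2), 4157 to 9471 for day 35 against day 3 in hormone cells (9471 without day 35 hormone replicate 2) and 925 to 4890 for the difference (4890 without the same library, 925 without day 3 hormone replicate 3).

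Signs turned as follows, and the cause was not tested. The difference of responses of *Phex* was 0.0895 with no filter and −0.15 to 0.22 with 1 library left out. *Fam20c* at untreated day 35 was 0.51 centred on the median, 0.42 after quantile normalization, 0.51 with rows summed and centred, and 0.25 with the sequencing run as a term. At day 28 it was called when centred (0.61, limma adjusted p = 0.0288). *Fgfr1* at day 14 was 0.46 with rows summed, 0.48 summed and centred, 0.52 with the run as a term and −0.44 to 0.53 with 1 library left out. At day 28 *Fgfr1* was 0.0673 summed and centred. Of 562 values of members under the alternatives, 504 kept their direction and side of the threshold, 29 lost and 12 gained a call, and 17 turned sign.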
